A study of Mus musculus with 12 samples.

Results

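The genes described here carry fatty acids and bile acids through the intestinal epithelium, or sense and signal their uptake. They are the 10 genes with the symbols Fabp1, Fabp2, Fabp6, Slc10a2, Slc51a, Slc51b, Nr1h4, Fgf15, Apoa1 and Apoa4, taken by symbol from 55335 genes in the deposited expression table, and all 10 were found. They were followed in 12 colon libraries of wild-type mice with colitis, in 4 groups of 3. Colitis had been induced chemically, with TNBS (trinitrobenzene sulfonic acid) or with DSS (dextran sulfate sodium), and each model was given either normal saline or thymopentin, a short peptide derived from the thymic hormone thymopoietin. The 4 groups are named below by model and treatment, TNBS saline for example, and every mouse, the saline controls included, had colitis. A colon without colitis was not analysed here. The sources used here give no strain, age, dose or timing. Nothing in the labels says whether the 3 libraries of a group came from separate animals, so p-values measure only the spread between these libraries, which may be technical.

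Bile acids secreted by the liver are largely recovered in the ileum and returned to it. In an ileal enterocyte Slc10a2 (ASBT) takes them up from the lumen, Fabp6 binds them in the cytosol, and the paired subunits Slc51a and Slc51b (organic solute transporter alpha and beta) release them on the blood side. Nr1h4 encodes FXR, the nuclear receptor that bile acids activate, and Fgf15 is the hormone through which the ileum then restrains bile acid synthesis in the liver. Fabp1 and Fabp2 bind fatty acids in absorptive cells, and Apoa1 and Apoa4 are apolipoproteins of the lipoprotein particles these cells secrete.

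Levels are given in FPKM, fragments scaled to transcript length and library size, so that genes can be compared per length. The summed FPKM ranged from 384431 to 532510 per library; the sources used here give no read totals. One library, TNBS saline 3, stood apart from its group: Hoxb13, a marker of the distal colon, was at 0.722 FPKM there and at 49.4 to 122 FPKM in the other 11 libraries, and 4 proximal Hox genes summed to 28.8 FPKM there against at most 6.21 elsewhere. Log2 fold changes of the tested carriers that use this library are given with and without it. The epithelial marker Epcam lay between 496 and 873 FPKM. Markers of the small intestine were mixed. Of 10 enterocyte genes, Lct and Sis, lactase and sucrase-isomaltase, reached at most 0.0445 and 0.0449 FPKM, and Slc2a2 and Cubn were also under 0.1 FPKM. Mep1b, a brush border protease, lay between 23.6 and 79.1 FPKM, the glucose carrier Slc5a1 between 13.4 and 37.7 and the peptide carrier Slc15a1 between 6.37 and 49.2. Alpi, intestinal alkaline phosphatase, reached 23.2 FPKM. Of 6 Paneth cell genes, Defa17 and Defa24 were listed at 0 in all 12 libraries, while Lyz1 reached 14.8 FPKM and Ang4 reached 167 FPKM, in TNBS thymopentin 3.

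Of the 10 carriers, 5 averaged under 1 FPKM in these colons. Fabp1 was listed at 0 in 8 of 12 libraries and reached 0.661 FPKM, in TNBS saline 3. Apoa1 was listed at 0 in 10 libraries and had 0.184 FPKM in TNBS saline 1 and 0.0861 FPKM in DSS saline 2. Apoa4 was listed at 0 in 8 libraries, with a highest value of 0.147 FPKM in DSS thymopentin 2. Fgf15, the hormone of the ileal response, was listed at 0 in 9 libraries and never exceeded 0.0371 FPKM. Slc51a averaged 0.417 FPKM over all libraries. These 5 genes fell under the filter of a mean of 1 FPKM and were not tested. The other 5, Fabp2, Fabp6, Slc10a2, Slc51b and Nr1h4, passed it and were tested among 13794 genes.

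**Figure D1:**
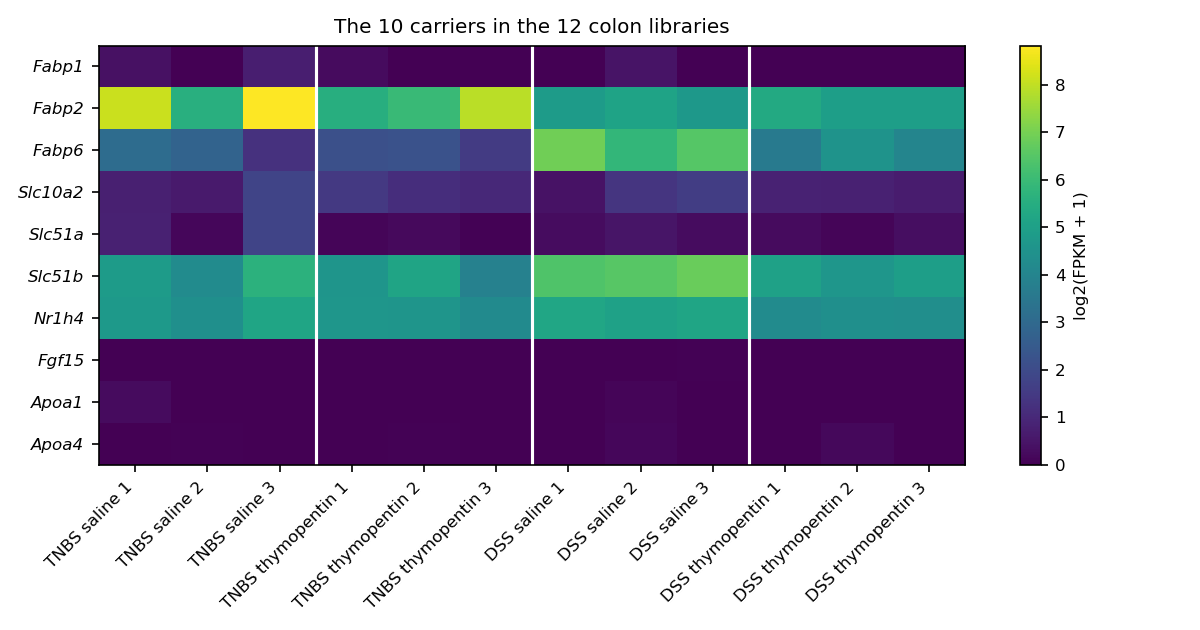
Level of each of the 10 carriers, as log2(FPKM + 1), in rows against the 12 libraries in columns, with white lines between the 4 groups. Fabp2, Fabp6, Slc51b and Nr1h4 carry nearly all of the signal, and Fabp1, Fgf15, Apoa1 and Apoa4 stay below 1 FPKM in every library.

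Within the DSS model the clearest contrast lay in the bile acid genes: Fabp6, Slc51b and Nr1h4 were all lower with thymopentin than with saline. The bile acid binding protein Fabp6 fell from 88.6 ± 32.0 to 16.3 ± 5.40 FPKM (SD, n = 3), a ratio of means of 5.44. The exporter subunit Slc51b fell from 95.0 ± 14.1 to 28.6 ± 4.24 FPKM, a ratio of 3.32, and the receptor gene Nr1h4 from 34.6 ± 2.14 to 19.1 ± 0.907 FPKM, a ratio of 1.81. Of the 5 tested carriers 3 were called lower and 0 higher, where 4.30% of all tested genes were called lower and 12.7% higher. In bulk tissue, fewer cells of a type and less RNA per cell cannot be told apart.

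Fabp6 stood at 120.4, 56.5 and 88.8 FPKM in DSS saline 1, 2 and 3 and at 11.4, 22.1 and 15.3 FPKM in DSS thymopentin 1, 2 and 3. The lowest saline library was thus above the highest thymopentin library, and 11.5% of all tested genes showed such a separation in the lower direction. The log2 fold change of FPKM + 1 was -2.36 ± 0.46 (SE), with a limma adjusted p of 0.00976. On the same scale the median of all tested genes was 0.12, and relative to it Fabp6 was at -2.48, Slc51b at -1.82 and Nr1h4 at -0.94.

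Slc51b stood at 83.2, 91.2 and 111 FPKM in the DSS saline libraries and at 31.8, 23.8 and 30.2 FPKM in the DSS thymopentin libraries. These ranges did not overlap, and the saline libraries lay close together. The log2 fold change was -1.70 ± 0.36 (limma adjusted p = 0.0134). Slc51b narrowly missed the threshold when DSS saline 3 was left out (limma adjusted p = 0.0536) or when DSS thymopentin 2 was left out (limma adjusted p = 0.0519).

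Nr1h4 stood at 36.0, 32.1 and 35.6 FPKM in DSS saline and at 18.1, 19.8 and 19.4 FPKM in DSS thymopentin. It was the least variable of the 3 within each group, and again no thymopentin library reached the saline range. The log2 fold change was -0.82 ± 0.18 (limma adjusted p = 0.0134).

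**Figure D2:**
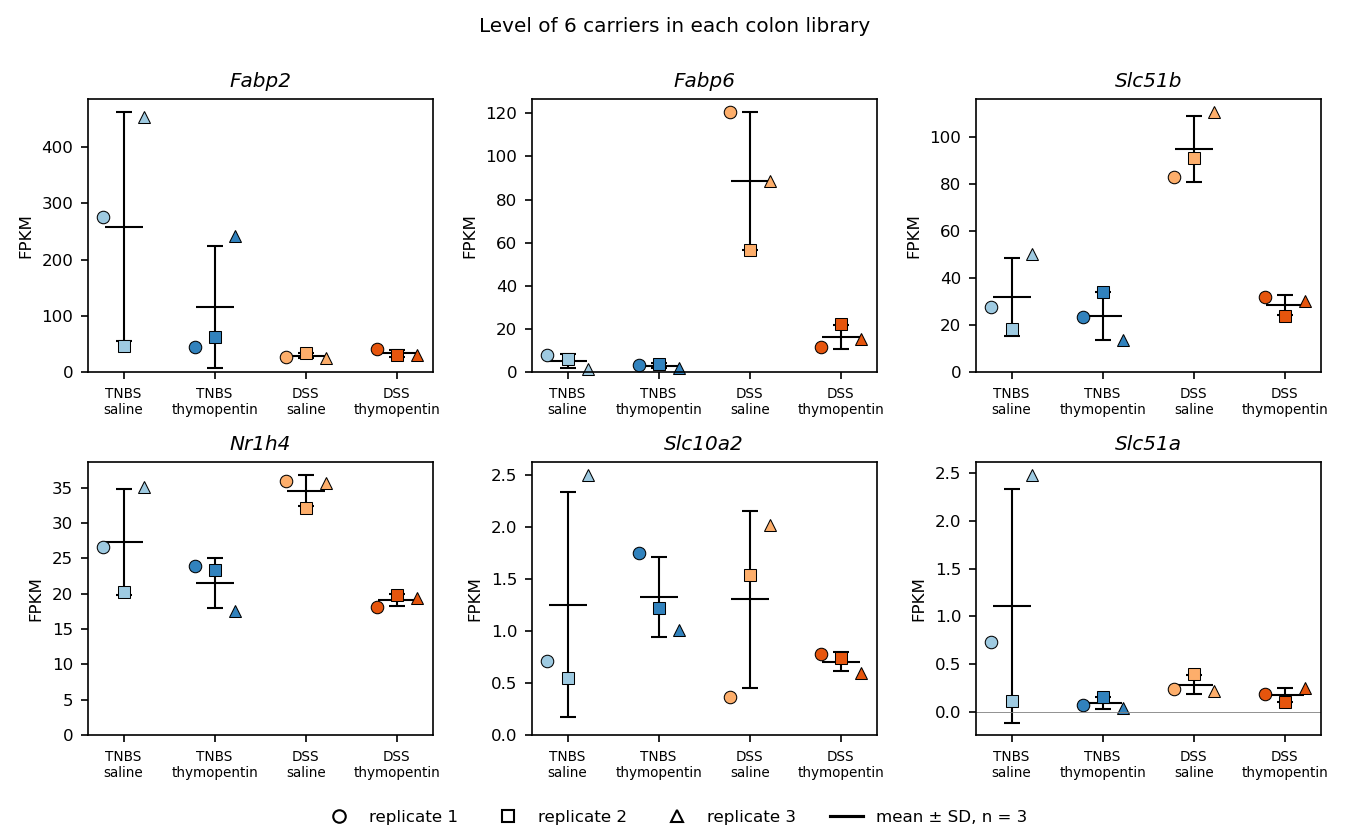
FPKM of 6 carriers in each library (symbols by replicate number), with the mean and SD of each group of 3. The DSS saline libraries of Fabp6, Slc51b and Nr1h4 lie above all DSS thymopentin libraries, while Fabp2 spreads from 46.7 to 454 FPKM within TNBS saline.

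The authors' deposited table of selected genes for DSS gives Fabp6 as -2.56 on the log2 scale (FDR 1.06e-17) and Slc51b as -1.86 (FDR 4.12e-27). None of the other 8 carriers is listed there, Nr1h4 included. The read counts recovered from that table were 2388, 1039 and 1627 reads of Fabp6 in DSS saline against 208, 340 and 294 in DSS thymopentin. For Slc51b they were 2449, 2488 and 3006 reads against 860, 543 and 859. Both genes therefore rest on at least 208 reads in every DSS library.

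Because FXR is known to bind inverted repeats of the hexamer AGGTCA spaced by 1 base, the promoters of both effector genes that moved most in DSS are shown, with the windows most like that repeat in capitals. They are from RefSeq, build GRCm38.p6, cover 250 bases before to 50 after the annotated start, and read 5′ to 3′ on the minus strand. The Fabp6 window is chr11:43601513-43601812 and the Slc51b window is chr9:65422724-65423023. The deposited values were made on mm9, so these positions belong to the RefSeq table alone.
Fabp6: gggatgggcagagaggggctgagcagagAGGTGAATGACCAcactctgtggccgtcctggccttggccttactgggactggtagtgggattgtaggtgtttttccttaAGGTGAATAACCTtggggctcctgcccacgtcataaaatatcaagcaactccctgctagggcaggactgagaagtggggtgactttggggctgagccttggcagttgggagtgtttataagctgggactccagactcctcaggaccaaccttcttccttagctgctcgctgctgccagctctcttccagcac
Slc51b: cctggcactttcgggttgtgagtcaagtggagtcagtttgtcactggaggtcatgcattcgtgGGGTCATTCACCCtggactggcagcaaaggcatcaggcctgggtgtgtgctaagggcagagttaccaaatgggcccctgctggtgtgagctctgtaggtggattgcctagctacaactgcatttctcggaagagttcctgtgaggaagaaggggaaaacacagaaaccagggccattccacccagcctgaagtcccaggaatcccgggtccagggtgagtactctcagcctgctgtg
In Fabp6 the capitals mark AGGTGAATGACCA, from -222 to -210 relative to the start, and AGGTGAATAACCT, from -142 to -130. Each shares 10 of the 12 fixed letters of AGGTCANTGACCT. In Slc51b they mark GGGTCATTCACCC, from -187 to -175, with 9 of 12 letters. The motif reads the same on both strands, so a match on one is a match on both. Of 32851 mouse promoters of this length, 11.4% held a window with at least 9 matching letters, 1.14% one with at least 10, and 0.782% held 2 or more windows with at least 9. Among the 9 carriers with a promoter in the table, 4 had a window with at least 9 letters: Fabp1, Fabp6, Slc51a and Slc51b. The hexamer alone, on either strand, lies in 16.3% of all promoters and in 4 of these 9: Fabp1, Slc51a, Slc51b and Nr1h4. The Fabp6 promoter does not hold it. A match describes the letters only; binding was not measured in these libraries.

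The remaining tested carriers showed no called difference with thymopentin in DSS. Fabp2, the intestinal fatty acid binding protein, stood at 27.8, 34.2 and 25.0 FPKM with saline and at 40.6, 29.9 and 29.6 FPKM with thymopentin, and these ranges overlapped (log2 fold change 0.19 ± 0.77, limma adjusted p = 0.888). Slc10a2, the uptake transporter, stood at 0.364, 1.54 and 2.02 FPKM with saline and at 0.783, 0.740 and 0.603 FPKM with thymopentin. The saline libraries spread widely around the thymopentin libraries (log2 fold change -0.36 ± 0.33, limma adjusted p = 0.482). The other exporter subunit, Slc51a, stood at 0.234, 0.399 and 0.218 FPKM with saline and at 0.191, 0.0999 and 0.246 FPKM with thymopentin. Per length Slc51b thus far exceeded its partner Slc51a in every DSS library.

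Markers of several other cell types moved beside these 3 genes. Of the 5 leukocyte genes 0 were called, with overlapping sums of 28.8 to 64.7 FPKM in DSS saline and 21.0 to 54.5 FPKM in DSS thymopentin. The 5 smooth muscle genes Acta2, Myh11, Des, Cnn1 and Actg2 summed to 2089 to 2506 FPKM in DSS saline and to 928 to 1410 FPKM in DSS thymopentin. Of these 5, Des (log2 fold change -1.22) and Cnn1 (-1.38) were called lower by limma, though neither under quantile normalization. The 6 distal Hox genes summed to 97.3 to 108 FPKM in DSS saline and to 159 to 204 FPKM in DSS thymopentin, with 0 of 4 tested members called. The 5 adipocyte genes summed to 13.3 to 113 FPKM with saline and 0.468 to 14.6 FPKM with thymopentin, and 0 of 3 tested were called. Without TNBS saline 3, in a fit added after seeing the data, 3 of 3 adipocyte and 3 of 5 smooth muscle genes were called lower, and 1 of 4 distal Hox genes higher. Sums of the 4 proximal Hox genes did not overlap and were lower with thymopentin, at 5.26 to 5.85 FPKM against 3.10 to 3.72 FPKM. The libraries of Hoxb7, 1 of the 4, overlapped. Of 3 tested 0 were called, and 1 of 2 was called lower without TNBS saline 3. Sums of the 8 colonocyte genes overlapped between both groups, at 2301 to 3267 FPKM against 2447 to 3157 FPKM. Single genes differed. Guca2a (540 to 609 against 363 to 391 FPKM) and Car1 (173 to 268 against 146 to 172 FPKM) were lower in every thymopentin library but not called. Epcam (496 to 634 against 716 to 859 FPKM) was higher in every thymopentin library. None of these 8 was at 0, and 1 of them, Epcam, was called higher, though not under median-ratio rescaling. The 10 small intestinal enterocyte genes summed to 47.1 to 66.7 FPKM with saline and 71.1 to 95.3 FPKM with thymopentin. Their directions were mixed, with 3 of 6 tested positive and a median log2 fold change of 0.19, against 0.12 for all tested genes. Of these 6, 2 were called higher, Anpep and Slc5a1, of which Anpep was lost under both other scalings. Mep1b, the most abundant of them, overlapped, at 23.6 to 36.3 FPKM with saline and 25.5 to 34.1 FPKM with thymopentin. The 8 hepatocyte genes summed to 12.9 to 26.5 FPKM with saline and 35.1 to 43.6 FPKM with thymopentin. Of 2 tested, 1 was called higher, Ttr (1.91), which held most of the thymopentin sum at 33.4 to 40.6 FPKM. The other, Cyp2e1, stood at 5.75, 15.7 and 1.53 FPKM with saline and at 0.327, 0 and 1.57 FPKM with thymopentin. Without TNBS saline 3, 1 of the 2 was called higher and 1 lower. Alb, albumin, reached at most 1.22 FPKM in any library. The part of these cell types and colon positions in the differences of Fabp6, Slc51b and Nr1h4 was not tested.

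In the TNBS model no tested carrier was called with thymopentin. By limma 0 of 5 passed, where 0.667% of all tested genes were called. At an unadjusted p under 0.05 it was also 0 of 5, where 12.7% of all tested genes passed. A limma fit that weighted libraries by their quality called 2, Fabp2 at -1.92 (limma adjusted p = 0.0249) and Fabp6 at -1.04 (limma adjusted p = 0.0382). That weighted fit called 2547 of all 13794 tested genes, against 92 without weights. Fabp6 stood at 7.71, 6.07 and 1.38 FPKM in TNBS saline 1, 2 and 3 and at 3.45, 3.72 and 1.89 FPKM in TNBS thymopentin. The value in TNBS saline 3 was the lowest of all 12 libraries, so both groups overlapped (log2 fold change -0.42 ± 0.46, limma adjusted p = 0.781). Without TNBS saline 3 the change of Fabp6 was -0.998 and not called (limma adjusted p = 0.255). Slc51b stood at 27.6, 18.3 and 50.5 FPKM with saline and at 23.6, 34.3 and 13.7 FPKM with thymopentin (-0.39 ± 0.36, limma adjusted p = 0.732). Nr1h4 stood at 26.5, 20.3 and 35.1 FPKM against 23.9, 23.3 and 17.5 FPKM (-0.31 ± 0.18, limma adjusted p = 0.524). For both genes TNBS saline 3 was the highest library of the model and TNBS thymopentin 3 the lowest. Without TNBS saline 3 their changes were -0.0085 for Slc51b and -0.11 for Nr1h4. Slc10a2 stood at 0.718, 0.552 and 2.50 FPKM with saline and at 1.76, 1.22 and 1.01 FPKM with thymopentin (0.13 ± 0.33, limma adjusted p = 0.917), and the change was 0.50 without TNBS saline 3 (limma adjusted p = 0.500).

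Fabp2 had the largest SD of the tested carriers within TNBS saline, 204 FPKM. It stood at 275, 46.7 and 454 FPKM in TNBS saline and at 45.2, 61.6 and 242 FPKM in TNBS thymopentin. Both groups held low and high libraries, and the log2 fold change of -1.03 ± 0.77 was not called (limma adjusted p = 0.646). Without TNBS saline 3 it was -0.37. Single cell type markers were called with thymopentin in TNBS, where 0.667% of all tested genes were called. Anpep (0.60), 1 of 6 tested small intestinal enterocyte genes, and Slc26a3 (1.25), 1 of 8 colonocyte genes, were higher. Mmp7 (-2.41), 1 of 3 tested Paneth cell genes, was lower. Without TNBS saline 3 only the Paneth cell list kept a call. The part of these cells in the carriers' levels was not tested.

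Slc51a is the one carrier in the authors' deposited table of selected genes for TNBS, at -2.84 on the log2 scale (FDR 0.00254). It stood at 0.737, 0.117 and 2.49 FPKM in TNBS saline and at 0.0759, 0.158 and 0.0386 FPKM in TNBS thymopentin. The recovered counts were 103, 14 and 356 reads with saline against 11, 20 and 5 with thymopentin. TNBS saline 3 held most of the reads, and TNBS saline 2 lay below TNBS thymopentin 2. In a limma fit with no filter on low values the log2 fold change of FPKM + 1 was -0.80 ± 0.31 (limma adjusted p = 0.454).

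The responses to thymopentin were then compared between the models. Although Fabp6, Slc51b and Nr1h4 were called in DSS and not in TNBS, the difference between the responses was called by limma for 0 of 5 carriers, against 5.15% of all tested genes; 2 of 5 had an unadjusted p under 0.05, against 22.1%. The difference was -1.93 ± 0.65 for Fabp6 (limma adjusted p = 0.114), -1.31 ± 0.51 for Slc51b (limma adjusted p = 0.162) and -0.52 ± 0.25 for Nr1h4 (limma adjusted p = 0.255). With library weights 3 passed: Slc51b, Nr1h4 and Slc10a2. The weighted fit called 2889 of all 13794 tested genes for this difference, against 710 without weights. For Fabp2 the difference was 1.22 ± 1.09 (limma adjusted p = 0.564), and 0.56 without TNBS saline 3. Without that library the difference was -1.36 for Fabp6, -1.69 for Slc51b and -0.71 for Nr1h4. That of Slc10a2 went from -0.49 to -0.86, and none of the 5 was called.

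**Figure D3:**
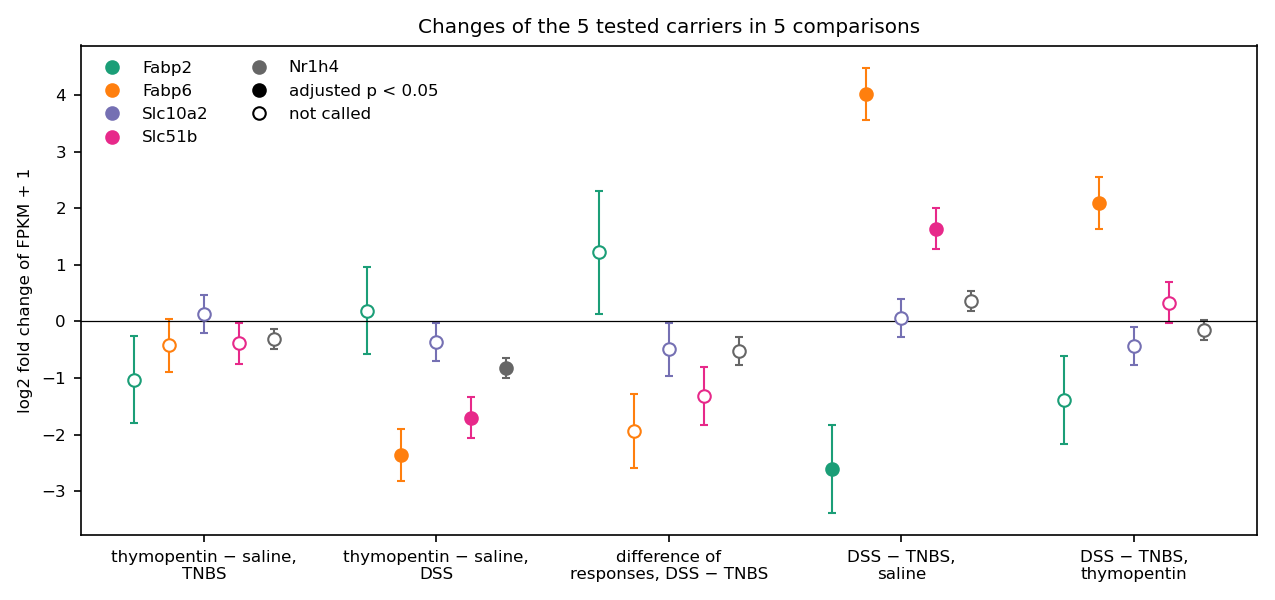
Log2 fold change of FPKM + 1 with its SE for the 5 tested carriers in the 5 comparisons, filled where the limma adjusted p was under 0.05. Fabp6, Slc51b and Nr1h4 are filled below 0 with thymopentin in DSS, and none is filled with thymopentin in TNBS or in the difference of the responses. The comparisons share libraries, so their points are not independent.

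Between the models under saline, Fabp6 and Slc51b were higher in DSS and Fabp2 was lower. Slc51a, not tested, averaged 0.284 FPKM in DSS saline and 1.11 FPKM in TNBS saline, with overlapping libraries. This comparison uses the same DSS saline libraries as the thymopentin comparison in DSS, so these comparisons are not independent. Fabp6 averaged 88.6 ± 32.0 FPKM in DSS saline and 5.05 ± 3.29 FPKM in TNBS saline (SD, n = 3), a ratio of means of 17.5 and a log2 fold change of 4.02 ± 0.46 (limma adjusted p = 0.000146). Slc51b averaged 95.0 against 32.1 FPKM (1.64 ± 0.36, limma adjusted p = 0.00411). Without TNBS saline 3 the changes were 3.45 for Fabp6 and 2.02 for Slc51b. Fabp2 averaged 28.98 ± 4.69 FPKM in DSS saline and 258 ± 204 FPKM in TNBS saline (-2.61 ± 0.77, limma adjusted p = 0.0181). Libraries of all 3 genes did not overlap between the models, a separation found higher in DSS for 18.8% and lower for 37.7% of all tested genes. Fabp2 lost the call without TNBS saline 3 (-1.95, limma adjusted p = 0.0670), without TNBS saline 1 (-2.31, limma adjusted p = 0.0620) and without DSS saline 3 (-2.51, limma adjusted p = 0.0521). The models differed widely, with 46.6% of all tested genes called, 15.2% higher and 31.5% lower in DSS, so 2 carriers higher and 1 lower among 5 sets them little apart from other genes. The median of all tested genes was -0.14. Nr1h4 averaged 34.6 against 27.3 FPKM and was not called (0.36 ± 0.18, limma adjusted p = 0.116), but was called at 0.55 without TNBS saline 3 (limma adjusted p = 0.0159) and at 0.54 under median-ratio rescaling (limma adjusted p = 0.0433). Slc10a2 averaged 1.31 against 1.26 FPKM (0.06 ± 0.33, limma adjusted p = 0.906), and its change was 0.42 without TNBS saline 3.

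Markers of several cell types and of colon position stood beside this contrast as well. All 5 smooth muscle genes were detected in every library and summed to 573 to 1837 FPKM in TNBS saline against 2089 to 2506 FPKM in DSS saline, and 4 of 5 were called higher, 1 of 5 under quantile normalization and 5 of 5 without TNBS saline 3. Of the 5 leukocyte genes 3 were called higher in DSS saline, with sums of 5.64 to 53.7 FPKM in TNBS saline and 28.8 to 64.7 FPKM in DSS saline. Of the 8 colonocyte genes 4 were called lower in DSS saline (3 lower and 1 higher under median-ratio rescaling), with sums of 2301 to 3267 FPKM against 3469 to 6207 FPKM. Of 6 tested small intestinal enterocyte genes 3 were called lower, Alpi among them (-2.56), and 1 higher, with sums of 47.1 to 66.7 FPKM against 124 to 141 FPKM. Adipocyte genes summed to 13.3 to 113 FPKM in DSS saline and 0.936 to 65.4 FPKM in TNBS saline, with 0 of 3 called, and 2 of 3 higher without TNBS saline 3. The distal marker Hoxd13 was called higher in DSS saline (2.79), 1 of 4 tested distal Hox genes. The part of these cells and positions in the carriers' differences was not tested.

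Under thymopentin the models were closer. Fabp6 averaged 16.3 ± 5.40 FPKM in DSS and 3.02 ± 0.990 FPKM in TNBS, a ratio of means of 5.39, and was the only carrier called (2.09 ± 0.46, limma adjusted p = 0.00927), where 27.5% of all tested genes were called and 11.0% were called higher in DSS. Slc51b averaged 28.6 against 23.9 FPKM (0.33 ± 0.36, limma adjusted p = 0.524) and Nr1h4 19.1 against 21.6 FPKM (-0.15 ± 0.18, limma adjusted p = 0.539). Fabp2 was lower in every DSS than in every TNBS library but was not called (-1.39 ± 0.77, limma adjusted p = 0.202), and the same held for Slc10a2 (-0.44 ± 0.33, limma adjusted p = 0.352). Libraries of 27.6% of all tested genes were separated in that direction. In the same comparison 3 of 5 leukocyte genes and 2 of 4 tested distal Hox genes, Hoxd13 (2.85) and Hoxd10 (1.04, lost under quantile normalization), were called higher in DSS, and 3 of 8 colonocyte genes lower. Leukocyte genes summed to 21.0 to 54.5 FPKM in DSS and 4.01 to 34.9 FPKM in TNBS, distal Hox genes to 159 to 204 against 72.5 to 120.3 FPKM, and colonocyte genes to 2447 to 3157 against 4105 to 4613 FPKM. Their part in the difference of Fabp6 was not tested.

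In the order of group means, Fabp6 ran from DSS saline (88.6 FPKM) through DSS thymopentin (16.3) and TNBS saline (5.05) to TNBS thymopentin (3.02), and only the TNBS neighbours overlapped. Slc51b was highest in DSS saline at 95.0 FPKM, apart from the other 3 groups, whose means of 32.1, 28.6 and 23.9 FPKM had overlapping libraries. Nr1h4 ran from 34.6 FPKM in DSS saline to 27.3, 21.6 and 19.1 FPKM in TNBS saline, TNBS thymopentin and DSS thymopentin, each neighbour overlapping with the next. Fabp2 ran from 258 and 116 FPKM in the TNBS groups to 33.3 and 28.98 FPKM in the DSS groups, with a gap between the models and overlap within them. Fabp2 was the most abundant carrier per length in TNBS, and Slc51b and Fabp6 in DSS saline.

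Calls in a wider list of lipid absorption and related genes, transcription factors included, were mostly higher with thymopentin in DSS. The same held for all tested genes in the reported fit. Fabp2, the only fatty acid carrier tested, was not called there (0.19). A list of 32 other lipid absorption and chylomicron genes had 26 tested members, and with thymopentin in DSS 6 were called higher and 1 lower (12.7% and 4.30% of all tested genes), with a median log2 fold change of 0.03 against 0.12 for all tested genes. That median turned to -0.10 under median-ratio rescaling and -0.06 under quantile normalization, with 6 higher and 1 lower under both. Acsl3, an acyl-CoA synthetase, rose from 15.4 ± 0.914 to 35.8 ± 5.40 FPKM, or by 1.16 ± 0.12 on the log2 scale (limma adjusted p = 0.000773). Pck1, phosphoenolpyruvate carboxykinase, rose by 1.24 on the log2 scale, the transcription factor gene Hnf4a by 0.77 and the fatty acid transport protein gene Slc27a2 by 0.82. The 1 lower gene, named after its value was seen, was Creb3l3, a transcription factor gene of lipid metabolism (-1.05). In TNBS 0 of 26 were called by limma. The difference between the responses was called for 5 of 26, all higher in DSS, Slc27a2 (1.28), Acsl3 (1.05), Hnf4a (0.79) and Plin3 (0.85), a lipid droplet coat protein, among them. Of all 13794 tested genes 376 were called higher and 334 lower for this difference. Under quantile normalization 4 of the 26 were called.

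Few bile acid and FXR genes outside the carriers were called in DSS, and those were higher with thymopentin. Of 30 listed genes 29 were in the table and 13 were tested. With thymopentin in DSS 2 were called higher and 0 lower, a share near the 12.7% of all tested genes called higher, and both were called under the other scalings too. The list median was 0.32, against 0.12 for all tested genes, and 0.16 under median-ratio rescaling. Vdr, the vitamin D receptor that also binds the secondary bile acid lithocholic acid, rose from 27.4 ± 4.41 to 67.3 ± 6.91 FPKM (1.28 ± 0.14, limma adjusted p = 0.00109). Nr5a2, the liver receptor homolog LRH-1, rose by 0.68 on the log2 scale. Without TNBS saline 3, 4 of 13 were called higher, with no share of all tested genes taken for that fit. Nr0b2, which encodes SHP, a textbook FXR target, and Cyp7a1, the rate-limiting enzyme of bile acid synthesis, were listed at 0 in all 12 libraries. In TNBS 0 of 13 were called by limma, and the difference between the responses was called for Vdr alone (1.15 ± 0.20, limma adjusted p = 0.0164).

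**Figure D4:**
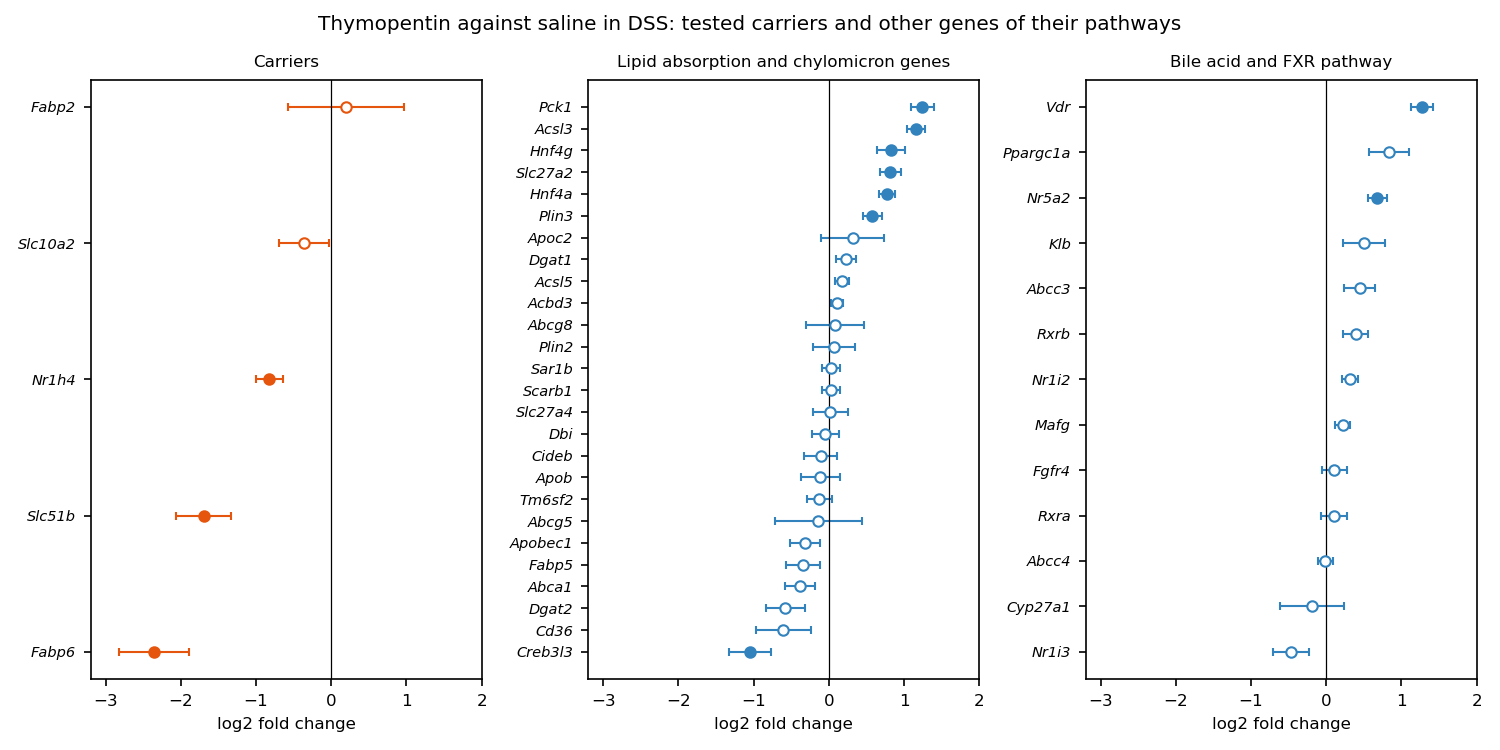
Log2 fold change of FPKM + 1 with its SE for thymopentin against saline in DSS, in the 5 tested carriers, 26 lipid absorption genes and 13 bile acid and FXR genes, filled where the limma adjusted p was under 0.05. Fabp6, Slc51b and Nr1h4 are filled to the left of 0, while the filled genes of the other panels lie to its right except Creb3l3.

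Under saline both lists had more genes lower in DSS than in TNBS, as did all tested genes, of which 31.5% were called lower and 15.2% higher. Of the lipid absorption genes 12 of 26 were called lower and 4 higher, and 10 lower under both other scalings. Acsl3 differed by -1.70, Pck1 by -1.38, Slc27a2 by -1.34 and Hnf4a by -0.84. Fabp5, a fatty acid binding protein of epidermis and macrophages, named after its value was seen, was higher in DSS (1.33 ± 0.22, limma adjusted p = 0.000963), opposite to Fabp2. Of the bile acid genes 6 of 13 were called lower and 1 higher, 5 and 2 under both other scalings, with Abcc3, a basolateral exporter of bile salts and conjugates, at -1.25, Vdr at -1.15 and Nr5a2 at -0.82. The list medians were -0.27 and -0.49, against -0.14 for all tested genes.

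Across the 12 libraries, Slc51b and Nr1h4 had the most similar pattern of any pair of tested carriers, with a Pearson r of 0.86 on log2(FPKM + 1), and 0.85 for deviations from the group means. Fabp6 followed Slc51b with r = 0.74 across libraries but had -0.38 for the deviations, so their likeness lay between groups and not within them. Fabp2 and Fabp6 ran opposite, at -0.71 and -0.58. The genes most like Fabp2 were Cpn1 (r = 0.99), B3gnt6 (0.98) and Cyp2c65 (0.98). For Fabp6 they were Ifi205 (0.99), Klra2 (0.97) and Fcgr1 (0.97), for Slc51b Hspb6 (0.97), Cycs (0.96) and Atp5g3 (0.95), and for Nr1h4 Trim15 (0.92), Sprr2h (0.92) and Nsmce1 (0.89). For Slc10a2 the highest values were Pigk (0.82), Eepd1 (0.79) and Fa2h (0.78). Each r is a description over 12 points that share libraries and groups.

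**Figure D5:**
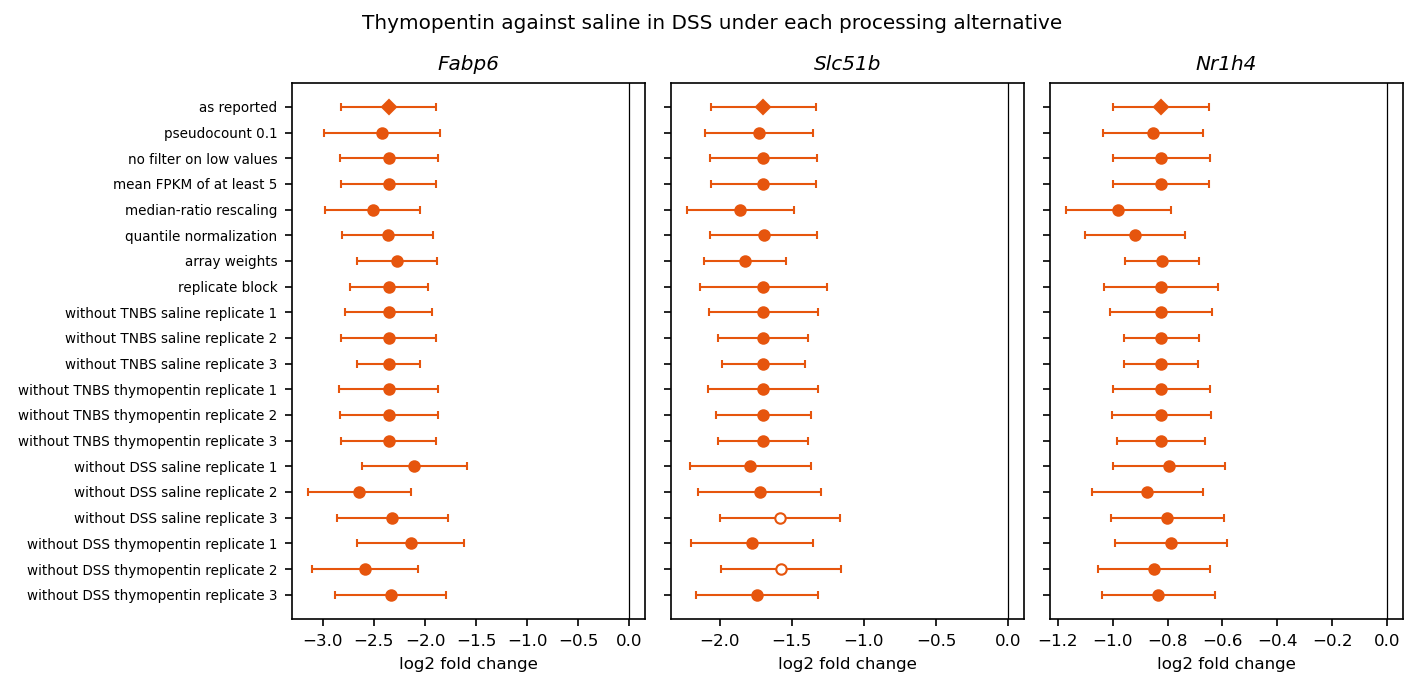
Log2 fold change with its SE of Fabp6, Slc51b and Nr1h4 for thymopentin against saline in DSS as reported (diamond) and under 19 processing alternatives (circles), filled where the limma adjusted p was under 0.05. All lie below 0, and only Slc51b has open circles, without DSS saline 3 and without DSS thymopentin 2.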

How the data were processed

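RNA of 12 colon libraries was made into strand-specific libraries after TRIzol extraction, per the labels' protocols. The authors deposited FPKM for 55335 genes, and, for selected genes of each model, log2 fold changes, p-values and FDR values together with per-library log2 values, per the file headers. Tools in the submitters' processing notes, which state neither role nor order, are STAR 2.5, Cuffnorm, DESeq 1.22.1 and FastQC, with the build mm9; the sources used here do not name the gene models. Raised from log2, less 1, all 4527 low values of the DSS and 2765 of the TNBS table (up to 30 reads) were whole reads within 0.01 after size factors of 0.847 to 1.12. A count test was not run, since only selected genes have such values.

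The 10 genes were matched by symbol. FPKM were tested as log2(FPKM + 1), which understates changes of low genes, for 13794 genes with a mean of at least 1 FPKM. One linear model of the 4 groups was fitted with limma 3.58.1 (R 4.3.3) and an empirical Bayes trend, leaving 8 residual degrees of freedom. Two-sided p-values were adjusted by Benjamini-Hochberg per comparison; called means an adjusted p under 0.05. Python 3.11.15, pandas 2.3.3, numpy 2.4.6 and matplotlib 3.10.9 were used. The fit was tested on simulated data. Promoters came from RefSeq GRCm38.p6 for 9 of 10 genes. Alternatives changed the pseudocount, the filter, the scaling and library weights, added the replicate number as a block, or left out each library.

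The members and gene lists were chosen with earlier results of these data known, and 1 gene of the bile acid list is not reported here. Named were all 10 genes, in each list up to 4 genes with the highest mean and up to 4 with the smallest adjusted p among those called, and the 3 genes most like each tested member. Outside this rule, Lct, Sis, Slc2a2, Cubn, Defa17, Defa24, Nr0b2 and Cyp7a1 are named for their low values. Group and number come from the treatment labels and titles. Libraries of the same number in TNBS deviated together from their group means (r = 0.12, 0.27 and 0.48), which meets the rule that every pair be over 0.1, although saline 2 and thymopentin 1 had 0.29. The reported values come from the fit without the block.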

Additional observations from a re-analysis of the deposited data

How the results depend on the processing

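The calls of Fabp6 and Nr1h4 with thymopentin in DSS held under all 19 alternatives, with log2 fold changes of -2.64 to -2.10 and -0.98 to -0.79 and limma adjusted p of at most 0.0389 and 0.0497. Fabp6 between the models held under all 18, as did Slc51b under saline. Library weights called more carriers: 2 in TNBS, 3 for the difference of the responses and 5 for DSS against TNBS under saline. Of all genes they called 2547 in TNBS (92 as reported), 4025 in DSS (2346) and 2889 for the difference (710). With no filter on low values 44 and 355 genes were called in TNBS and for the difference; with a mean of at least 5 FPKM 1447, 385 and 3661 (6431 as reported) were called in DSS, for the difference and between the models under saline, with only 7140 genes tested. Slc10a2 has no value under that filter. Leaving out 1 library gave 41 to 114 genes in TNBS, 916 to 2524 in DSS, 177 to 770 for the difference, 5328 to 6453 between the models under saline and 2056 to 4008 under thymopentin (3799 as reported). The cause of the other shifts was not tested.

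Directions that turned were those of carriers not called as reported: Slc10a2 in TNBS (-0.086 to 0.50 with 1 library left out, negative without TNBS saline 1, at -0.013, or 2), Slc10a2 between the models under saline (-0.18 to 0.42, negative without TNBS saline 1 or 2 or DSS saline 2 or 3) and Slc51b between the models under thymopentin (-0.0044 to 0.63, negative without TNBS thymopentin 3). The share of higher calls among all calls depended on the scaling. It was 74.7% in DSS, 44.0% under median-ratio rescaling and 52.5% under quantile normalization. The same 3 shares were 42.4%, 33.3% and 33.7% in TNBS, 53.0%, 33.8% and 41.1% for the difference, 32.5%, 50.9% and 43.0% between the models under saline, and 40.1%, 50.9% and 42.5% under thymopentin. Fitting the replicate number as a block changed no carrier's call: 0 in TNBS, 3 in DSS (Slc51b at a limma adjusted p of 0.0496) and 0 for the difference, with 79, 1944 and 589 genes in all. Libraries of the same number did not all deviate together in DSS (r = -0.14, 0.04 and -0.14). The comparisons between the models were not taken from the fit with the block. Leaving out TNBS saline 3 from the list counts was chosen after seeing the data, and those counts have no share of all tested genes beside them. Read totals are unknown, which limits what can be said of Fabp1, Fgf15, Apoa1 and Apoa4.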
